A study of Homo sapiens with 4 samples.

Results

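CCNA2, CCNB1, CDK1, MKI67 and TOP2A, 5 genes that cells switch on to divide, were followed through H3K27ac HiChIP libraries of control and senescent IMR90 cells. IMR90 is a line of diploid human lung fibroblasts. An interaction was assigned to a gene when either of its anchors overlapped the gene extended by 5 kb on each side, in hg19 positions. This took in 223 of the 1330388 interactions listed over the 4 libraries, with 109 in the control library, 37 in senescent shcontrol, 26 in shMETTL3 and 51 in shMETTL14. HiChIP joins neighbouring DNA ends in crosslinked nuclei and pulls down the ligated pieces by antibody. The mark chosen was histone H3 acetylated at lysine 27, found at active promoters and enhancers. Each group is 1 library. The control library comes from cells labelled WT and control, and the other libraries from cells labelled senescent that carry a hairpin named shcontrol, shMETTL3 or shMETTL14. Senescence was driven by an inducible fusion of the estrogen receptor with a mutant H-RAS. The control label names no hairpin, so the control and senescent shcontrol libraries may differ in that as well, and the labels do not say whether the control cells carry the uninduced fusion. The treatment text names METTL4 where the sample labels name METTL14, and the sample labels were followed. The METTL3 and METTL14 proteins form the enzyme complex that methylates adenosine in RNA, and their depletion was not analysed here.

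Dividing cells raise these genes late in the cycle and cells in lasting arrest keep them low. CCNA2 encodes cyclin A2, which drives DNA replication and entry into mitosis, CCNB1 encodes cyclin B1, and CDK1 encodes the kinase that cyclin B1 activates to start mitosis. MKI67 encodes Ki-67, a coat protein of mitotic chromosomes used as a marker of dividing cells, and TOP2A encodes topoisomerase II alpha, which untangles replicated DNA. In arrested cells the DREAM repressor complex holds many such genes down through the cell cycle homology region (CHR) of their promoters, and the factor NF-Y binds CCAAT boxes there. Transcripts were not analysed here, so the name of the group, genes silenced in senescence, could not be checked against RNA.

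The promoter sequences are shown because CHR and CCAAT elements are what the control of such genes is known for. The 250 bases before each start are given 5′ to 3′ on the gene's strand, from RefSeq on the GRCh38.p14 build, which is not the build of the interaction files. All 5 genes matched the RefSeq table, and CDK1 has a pair of starts there, of which the downstream one is shown. The CDK1 distances given below are taken from a single hg19 start, 62538089, which was not matched to either of the pair. Capitals mark the CHR letters TTTGAA or TTCGAA and the CCAAT box CCAAT, on either strand.
CCNA2 promoter, chr4:121823884-121824133, minus strand: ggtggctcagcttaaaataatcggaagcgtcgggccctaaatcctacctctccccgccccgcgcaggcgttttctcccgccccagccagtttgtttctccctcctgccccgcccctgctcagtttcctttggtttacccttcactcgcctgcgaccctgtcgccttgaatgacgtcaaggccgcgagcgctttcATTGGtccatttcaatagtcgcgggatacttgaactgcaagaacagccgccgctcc
CCNB1 promoter, chr5:69166900-69167149, plus strand: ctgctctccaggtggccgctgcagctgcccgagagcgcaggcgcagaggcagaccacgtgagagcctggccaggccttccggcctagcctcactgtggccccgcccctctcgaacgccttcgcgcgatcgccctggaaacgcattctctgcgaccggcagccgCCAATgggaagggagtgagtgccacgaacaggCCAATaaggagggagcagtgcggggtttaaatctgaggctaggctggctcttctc
CDK1 promoter, chr10:60778228-60778477, plus strand: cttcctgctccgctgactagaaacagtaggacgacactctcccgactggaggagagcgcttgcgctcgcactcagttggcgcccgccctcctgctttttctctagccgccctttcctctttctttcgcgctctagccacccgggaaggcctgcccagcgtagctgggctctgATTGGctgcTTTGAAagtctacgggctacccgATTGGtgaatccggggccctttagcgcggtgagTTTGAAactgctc
MKI67 promoter, chr10:128126424-128126673, minus strand: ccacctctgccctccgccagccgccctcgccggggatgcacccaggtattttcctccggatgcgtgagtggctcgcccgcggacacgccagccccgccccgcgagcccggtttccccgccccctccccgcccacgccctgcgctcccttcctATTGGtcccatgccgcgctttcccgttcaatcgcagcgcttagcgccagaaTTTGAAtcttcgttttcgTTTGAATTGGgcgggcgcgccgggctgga
TOP2A promoter, chr17:40417897-40418146, minus strand: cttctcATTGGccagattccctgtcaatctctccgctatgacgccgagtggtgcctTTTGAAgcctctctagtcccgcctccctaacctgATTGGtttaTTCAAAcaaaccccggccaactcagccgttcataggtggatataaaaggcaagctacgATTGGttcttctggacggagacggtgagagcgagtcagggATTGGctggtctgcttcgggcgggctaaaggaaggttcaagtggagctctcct

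CCAAT boxes were found at every member and CHR letters at some. The window searched ran from 250 bases before to 50 bases after the start. TOP2A held 4 CCAAT boxes, CCNB1, MKI67 and the downstream CDK1 start held 2 each, and CCNA2 held 1. The upstream CDK1 start, not shown, held 1 CCAAT box and 1 CHR match, against 2 and 3 at the downstream one. In the MKI67 promoter the last CCAAT box overlaps the second CHR match by 1 base. CHR letters occurred at CDK1, MKI67 and TOP2A, in 4 of the 6 member promoters, and in 16.4% of all 35116 promoters of the table. CCAAT was in 6 of 6 member promoters and in 34.6% of all promoters. The E2F letters TTTCCCGC and TTTGGCGC were in none of the 6 and in 2.27% of all. Among 40 other cell cycle genes listed for comparison, 31 were in the table with 44 promoters, of which 14 held CHR letters, 30 CCAAT and 12 the E2F letters. Where a motif was not found, only its letters are absent from the window. Other forms of the CHR were not searched, so CCNA2 and CCNB1 cannot be said to lack the element. The contact values of these other genes were not analysed here, because no gene positions on hg19 were at hand beyond the 5 members.

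The libraries differ in depth and in anchors. A paired-end tag (PET) is a sequenced pair whose ends fall in both anchors of an interaction. The files list 998378 PETs for control, 552029 for senescent shcontrol, 623930 for shMETTL3 and 936492 for shMETTL14, so 1 PET is worth 1.00 to 1.81 ppm, that is, PETs per 1000000 PETs of the library. The 3 senescent libraries use a common anchor set and the control library another one, with 66743 anchors over 318 Mb in the control set and 55317 over 232 Mb in the senescent set. A PET can be listed only where an anchor was called. Anchors are known here only from listed interactions, so a gene where no anchor was called and a gene whose anchor had no listed contact look the same. Levels are shares of the library in ppm, intervals are exact 95% intervals for counting error only, and no p-value is given since no group has a replicate. More acetylation at an anchor and more contact both raise its PETs, and cannot be told apart.

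All 5 members had contacts in the control library, and 3 of them had any in the senescent libraries. Over the members together the control library held 287 PETs, senescent shcontrol 57, shMETTL3 45 and shMETTL14 84, which is levels of 287, 103, 72.1 and 89.7 ppm. CDK1 and MKI67 had no PET in any senescent library, and no listed senescent anchor reached into either gene window. Whether an anchor was called there without a contact, or none was called, cannot be told apart. CCNA2, CCNB1 and TOP2A kept an anchor in both sets.

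**Figure D1:**
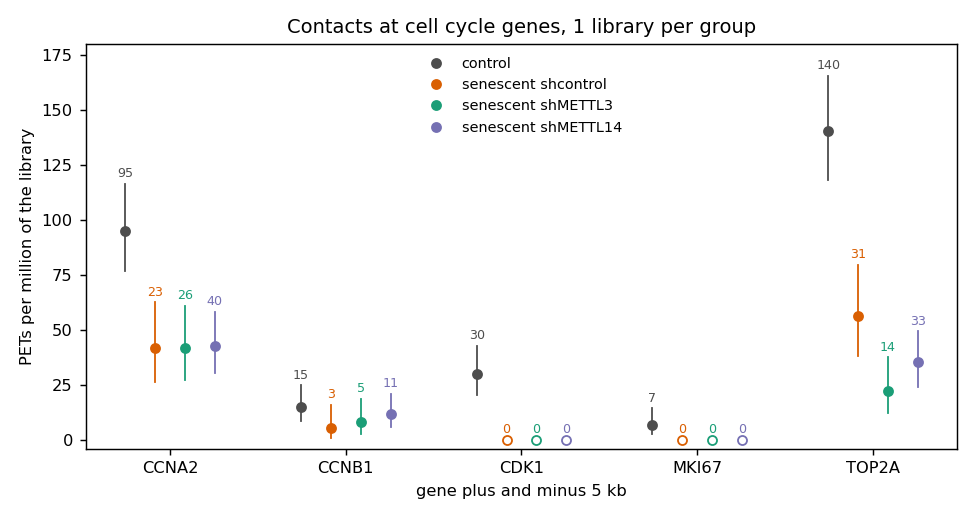
Level in ppm, the share of each library's PETs (vertical axis), at the 5 genes, with exact 95% Poisson intervals and the PET count above each point; open circles mark libraries with no listed anchor in the gene window. The control library is highest at every gene, from 7.01 at MKI67 to 140 at TOP2A.

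The anchors at the gene starts differed in place and width between the sets. CCNB1 (chromosome 5, 68462837 to 68474070) had nearly the same anchor in both, 3.27 kb wide in control and 2.88 kb in senescence, over the gene start. CCNA2 (chromosome 4, 122737600 to 122745087) had a 13.1 kb control anchor that covers the start and the whole gene, and a smaller one of 2.54 kb upstream of it. Its senescent anchor, 8.36 kb wide, ran from 7051 bases upstream of the start to 1304 bases into the gene, so it covered the start with less of the gene and more of the upstream side. The next protein-coding gene on that side is BBS7, and EXOSC9 overlaps CCNA2 at its other end in RefSeq. Where an anchor also holds part of a neighbour, PETs of CCNA2 and of that gene cannot be told apart.

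TOP2A (chromosome 17, 38544773 to 38574202) had a 6.90 kb control anchor over the start and a 5.13 kb one inside the gene. The senescent set had a single anchor of 2.61 kb that began 1556 bases after the start, so the TOP2A start itself lay in an anchor of the control set only. CDK1 (chromosome 10, 62538089 to 62554610) had an 8.36 kb control anchor over its start, and the nearest senescent anchor lay 31.2 kb from the start, beyond the end of the gene. MKI67 (chromosome 10, 129894925 to 129924468) had a 4.33 kb control anchor over its start, and the nearest senescent anchor lay 60.2 kb away. Control anchors that overlap no senescent anchor were common, 41.3% of all. Among control anchors with at least the 7 PETs of the MKI67 anchor the share was 35.6%, and among those with at least the 30 PETs of the CDK1 anchor it was 16.0%.

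**Figure D2:**
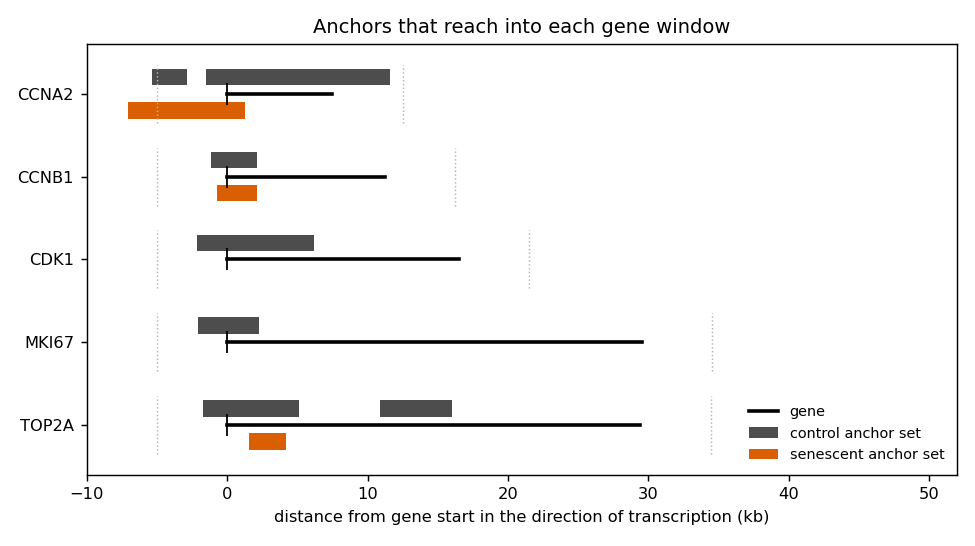
Anchors of the control set (grey) and the senescent set (orange) that reach into each gene window (dotted edges), by distance in kb from the gene start in the direction of transcription, with the gene as a black line. CDK1 and MKI67 have listed anchors in the control set only, and the senescent TOP2A anchor begins 1556 bases after the start.

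Per kb of anchor, the control library ranked the gene starts TOP2A, CCNA2, CCNB1, CDK1 and MKI67. The start anchors had 15.1 ppm per kb at TOP2A (interval 12.3 to 18.3), 6.50 at CCNA2 (5.19 to 8.04), 4.59 at CCNB1 (2.57 to 7.58), 3.59 at CDK1 (2.42 to 5.13) and 1.62 at MKI67 (0.651 to 3.34). TOP2A stood above the others beyond counting error, while each of the other neighbours in this order had overlapping intervals. By PETs per anchor, not per length, 95.1% of control anchors had fewer than the TOP2A start, 93.2% fewer than the CCNA2 start, 72.1% fewer than CDK1, 47.3% fewer than CCNB1 and 21.8% fewer than MKI67.

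Per kb of anchor all 3 senescent libraries had TOP2A highest, then CCNA2, then CCNB1, but by PETs per anchor TOP2A was below CCNA2 in shMETTL3 and shMETTL14. The TOP2A anchor had 21.5 ppm per kb in shcontrol (14.6 to 30.5), 8.60 in shMETTL3 (4.70 to 14.4) and 13.5 in shMETTL14 (9.29 to 19.0). The CCNA2 anchor stood at 4.99 (3.16 to 7.48), 4.99 (3.26 to 7.31) and 5.11 (3.65 to 6.96), nearly the same in all 3. The intervals of TOP2A and CCNA2 overlap in shMETTL3 and not in the others. The CCNB1 anchor had 1.89 (0.389 to 5.51), 2.78 (0.903 to 6.49) and 4.08 (2.04 to 7.29), with wide and overlapping intervals. By PETs per anchor, the TOP2A anchor had more than 82.3% of anchors in shcontrol, 53.7% in shMETTL3 and 69.8% in shMETTL14. The CCNA2 anchor had more than 74.3, 74.9 and 75.8%, and the CCNB1 anchor more than 11.0, 19.4 and 30%.

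Senescent shcontrol against control asks how contacts at these genes differ between senescent and control cells. CCNA2, cyclin A2, and TOP2A, topoisomerase II alpha, had a share of PETs more than 2-fold lower in senescent shcontrol by library total, but not per kb of anchor. CCNA2 had 95 PETs in control and 23 in senescent shcontrol, or 95.2 and 41.7 ppm, a ratio of 0.438 (0.265 to 0.696). TOP2A had 140 and 31 PETs, or 140 and 56.2 ppm, a ratio of 0.400 (0.262 to 0.594). Divided by the length of window that anchors cover, 15.3 against 6.31 kb at CCNA2 and 12.02 against 2.61 kb at TOP2A, the ratios were 1.06 (0.641 to 1.69) and 1.84 (1.21 to 2.74). The TOP2A ratio thus turned with the measure, and its interval per covered kb lies above 1. Its control length includes the 5.13 kb anchor inside the gene, which overlaps no senescent anchor. The control start anchor alone had 15.1 ppm per kb (12.3 to 18.3). The senescent anchor had 21.5 (14.6 to 30.5), and these intervals overlap, so no rise per kb is read from them. Divided by the whole length of the anchors, CCNA2 stood at 0.819 (0.495 to 1.30).

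Few members had the depth for the size rule. A member counted as lower or higher when it differed at least 2-fold with an interval clear of 1, and when both libraries together held 50 PETs or more. CCNA2 and TOP2A had 118 and 171 PETs and met it as lower, while CDK1 with 30, CCNB1 with 18 and MKI67 with 7 fell under the minimum. So 2 of 5 members were lower and 0 higher, and these 2 were the only members that met the minimum. Both met it only with their control PETs, 95 and 140, as senescent shcontrol held 23 and 31. The minimum thus admitted them through the library where they are high, and the count is not a test. Of the 30 kb tiles of the genome that met the same minimum, 26.4% were lower and 15% higher. The tile shares thus leave out tiles of low depth, while the count over 5 members does not. With a minimum of 20 PETs, 3 were lower and 0 higher, and CCNB1 and MKI67 still fell under it. Of tiles that met it, 27.2% were lower and 16.4% higher. The added member is CDK1, which has no listed anchor in senescence. It met this minimum through its 30 control PETs alone and could only be called lower, so its call is no evidence of a difference. Per covered kb no member was lower or higher, with 5.33% of tiles lower and 19% higher. The median ratio over the tiles by library total was 0.855, and scaling by trimmed mean of M values (TMM) left CCNA2 and TOP2A lower, at 0.454 and 0.415.

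CCNB1, with nearly equal anchors, had 15 PETs in control and 3 in senescent shcontrol. That is 15.0 and 5.43 ppm, a ratio of 0.362 (0.0671 to 1.28), and 0.411 (0.0762 to 1.45) per covered kb. Its interval includes 1 on both scales, so no difference was detectable at this depth. CDK1 had 30 PETs in control, or 30.05 ppm (20.3 to 42.9), and MKI67 had 7, or 7.01 ppm (2.82 to 14.4). No ratio is given for these genes, since without a listed senescent anchor it cannot be told whether the 0 is a count of contacts.

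**Figure D3:**
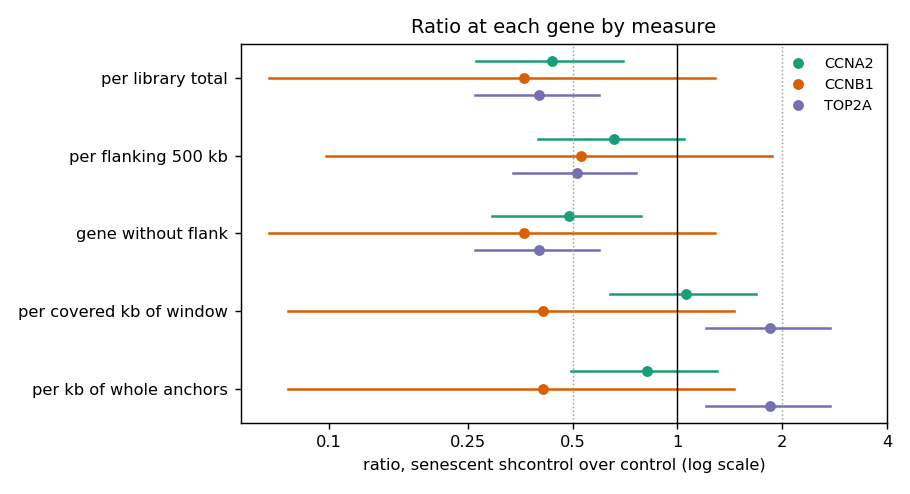
Ratio of senescent shcontrol to control (horizontal, log scale) for CCNA2, CCNB1 and TOP2A under 5 measures, with exact 95% intervals and dotted lines at 2-fold. Per library total CCNA2 and TOP2A lie at 0.438 and 0.400, and per covered kb at 1.06 and 1.84.

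The surroundings of the genes moved too. PETs with an end within 500 kb of a gene window but none in it stood in senescent shcontrol at 0.668 of control around CCNA2 (0.548 to 0.810), 0.685 around CCNB1 (0.523 to 0.888) and 0.780 around TOP2A (0.724 to 0.839). Set against these flanks, the CCNA2 ratio was 0.656 (0.397 to 1.04) and the TOP2A ratio 0.514 (0.336 to 0.762), both short of 2-fold. Around CDK1 the flanks went the other way, at 1.67 of control (1.45 to 1.93), with 405 ppm in control and 678 in senescent shcontrol. The MKI67 flanks went the same way on few PETs, with 5 in control and 11 in senescent shcontrol, or 5.01 and 19.9 ppm, a ratio of 3.98 (1.27 to 14.6). The part of the surroundings in the gene values was not tested.

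CDK1 had contacts on a single side in the control library. All 30 of its PETs went downstream, to 22 partner regions, and none went upstream, where the control set has 39 anchors within 2 Mb against 80 downstream. The nearest gene upstream is ANK3 and the nearest downstream RHOBTB1. The contacts were long and thin, with a median span of 827 kb, 93.3% of PETs at 100 kb or more and at most 3 PETs in an interaction, and none was a called loop. The interaction of 3 PETs reached a region 1123 kb downstream (chromosome 10, 63656187 to 63666368). That region kept its own contacts in senescence, with 202 ppm in control and 270, 261 and 251 in shcontrol, shMETTL3 and shMETTL14. Of the 22 partner regions, 15 held a senescent anchor, and these had received 20 of the 30 PETs.

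**Figure D4:**
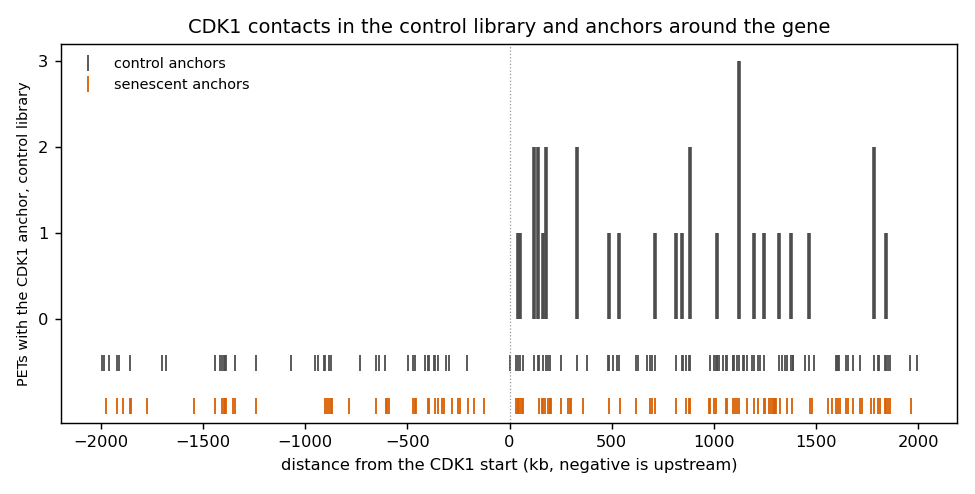
PETs that join the CDK1 anchor to its partners in the control library (vertical) by distance from the CDK1 start in kb, above tick marks for the anchors of the control and senescent sets within 2000 kb. All contacts lie downstream, and the senescent set has anchors on both sides but none in the CDK1 window.

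PETs that pass over the CDK1 window, from an anchor on one side to an anchor on the other, were listed in all 4 libraries. They numbered 57 in control, 46 in senescent shcontrol, 47 in shMETTL3 and 98 in shMETTL14, or 57.1, 83.3, 75.3 and 105 ppm. The ratio of senescent shcontrol to control was 1.46 (0.968 to 2.19), which includes 1. Contacts across the locus were thus listed in senescence while the gene itself had no listed anchor.

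MKI67 had 5 partners in the control library, with 3 PETs to a region 23.9 kb upstream of the start and 1 PET to each of the others. The region upstream (chromosome 10, 129947333 to 129949452) holds no senescent anchor, and MGMT is the next protein-coding gene on that side. Of the 5 partners, 3 hold a senescent anchor. With 7 PETs in all, nothing about the order of its partners can be read.

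CCNA2 made its strongest control contact with a region 142 kb downstream of its start (chromosome 4, 122585599 to 122620048). It took 22 PETs in control, 1 in senescent shcontrol, 7 in shMETTL3 and 5 in shMETTL14, or 22.04, 1.81, 11.2 and 5.34 ppm. The control library is highest and senescent shcontrol lowest. The ratio of senescent shcontrol to control was 0.0822 (0.00199 to 0.509). All PETs of that region stood at 0.936 (0.715 to 1.22), with 170 and 159 ppm. The region was picked by its PETs over the 4 libraries, and control gave 22 of the 35. The contact ratio is drawn from these same counts, so its interval does not test a difference. Nor is it adjusted for the other contacts looked at, the 3 with most PETs of each member. The region is covered by 1 wide control anchor and 3 senescent ones, and the CCNA2 anchors differ too, so the place of the anchors and the contact cannot be told apart.

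The knockdown libraries share these anchors with senescent shcontrol. At the same contact shMETTL3 had 6.19 times the shcontrol share (0.796 to 279) and shMETTL14 2.95 times (0.330 to 139), both intervals including 1 with the single shcontrol PET. An interaction of 6 PETs with the region was a called loop in shMETTL3, the only called loop of CCNA2 in a senescent library. Called loops are interactions with 4 PETs or more whose deposited false discovery rate does not exceed 0.01.

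Nearer partners of CCNA2 lay 22.4 and 36.0 kb downstream. The first (122720178 to 122725258) had 15 PETs in control and 5, 7 and 5 in shcontrol, shMETTL3 and shMETTL14, with a ratio of 0.603 (0.171 to 1.74) for senescent shcontrol over control. The second (122704203 to 122713966) had 12, 2, 2 and 6 PETs, and 0.301 (0.0328 to 1.35). Both intervals include 1. In control 71 PETs went downstream and 21 upstream, and in senescent shcontrol 14 and 9. Without the 142 kb region, left out after its values were seen, the CCNA2 ratio of senescent shcontrol to control was 0.545 (0.322 to 0.888), no longer 2-fold.

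TOP2A made its strongest contact with a region 128 kb upstream (chromosome 17, 38686683 to 38718483), on the side of IGFBP4 and TNS4. It had 36 PETs in control, 13 in senescent shcontrol, 1 in shMETTL3 and 5 in shMETTL14, or 36.1, 23.5, 1.60 and 5.34 ppm. Control and senescent shcontrol are high, and both knockdown libraries are low. Senescent shcontrol stood at 0.653 of control (0.318 to 1.26), and all PETs of the region at 0.631 (0.521 to 0.761).

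Between senescent libraries the TOP2A anchor is the same, and the 128 kb contact had a lower share of PETs in both knockdown libraries than in shcontrol. In shMETTL3 the contact was 0.0681 of that in shcontrol (0.00160 to 0.453), and all PETs of the region were 0.926 (0.736 to 1.16). In shMETTL14 the contact was 0.227 of that in shcontrol (0.0633 to 0.678), and all PETs of the region 0.648 (0.517 to 0.813). Between the knockdowns the ratio at this contact was 3.33 for shMETTL14 over shMETTL3 (0.373 to 158), an interval that includes 1. Both comparisons with shcontrol rest on its same 13 PETs, which are also among the 55 by which the region was picked. Their intervals thus do not test a difference. The contact is 1 of 15, the 3 with most PETs of each member, and the intervals are not adjusted for that number.

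**Figure D5:**
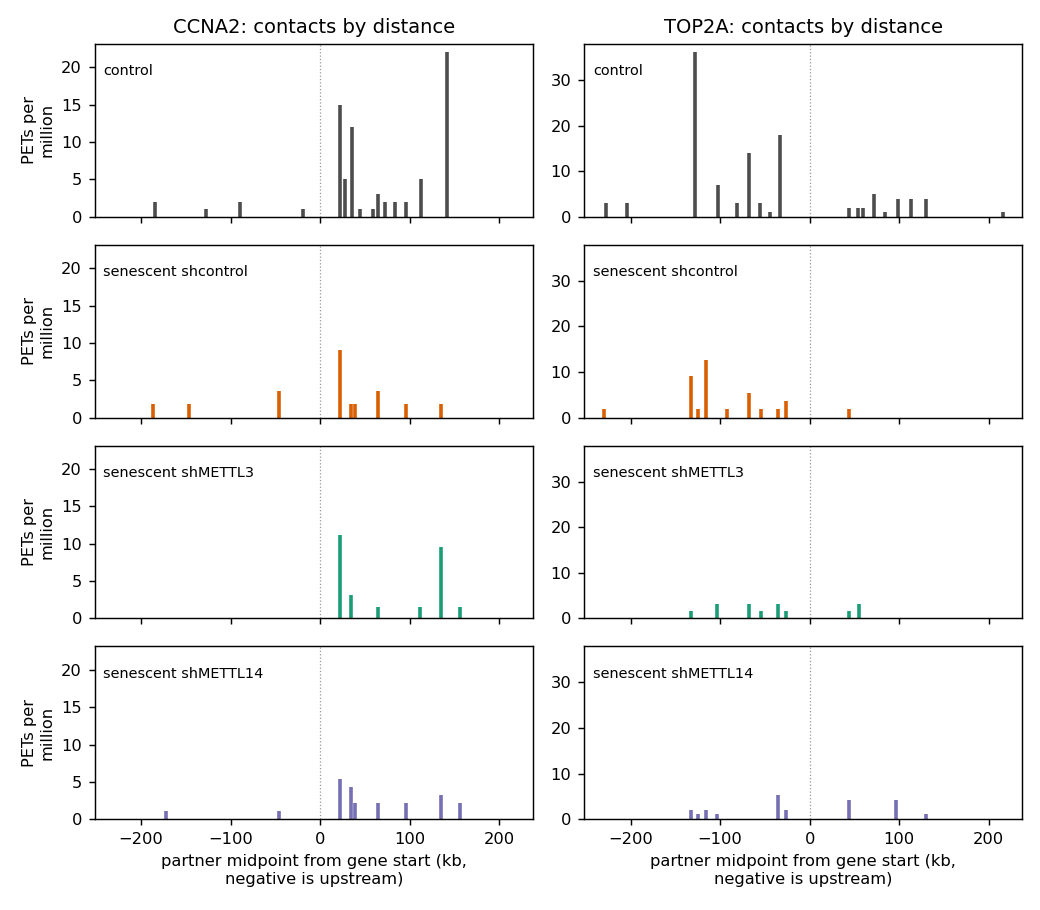
Level in ppm of each library's PETs (vertical) between CCNA2 (left) or TOP2A (right) and each partner anchor within 250 kb, by distance of its midpoint from the gene start in kb, with 1 row per library. The 142 kb contact of CCNA2 is high in control, and the contact 128 kb upstream of TOP2A is high in control and, split over 3 anchors, in senescent shcontrol.

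Over all its partners TOP2A had 31 PETs in shcontrol, 14 in shMETTL3 and 33 in shMETTL14, or 56.2, 22.4 and 35.2 ppm. The shMETTL3 library stood at 0.400 of shcontrol (0.196 to 0.774), which is over 2-fold with an interval below 1, but the 45 PETs are under the minimum of 50. With a minimum of 20 it was the single member called lower, beside 2.75% of tiles. Without the 128 kb region, left out after its values were seen, the ratio was 0.639 (0.288 to 1.38). The shMETTL14 library stood at 0.627 of shcontrol (0.373 to 1.06), and at 0.917 (0.490 to 1.76) without the region.

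CCNA2 and CCNB1 did not differ detectably between the senescent libraries. CCNA2 had 23, 26 and 40 PETs in shcontrol, shMETTL3 and shMETTL14, or 41.7, 41.7 and 42.7 ppm. Its ratios to shcontrol were 1.00 (0.549 to 1.83) in shMETTL3 and 1.03 (0.599 to 1.79) in shMETTL14. CCNB1 had 3, 5 and 11 PETs, and ratios of 1.47 (0.287 to 9.50) and 2.16 (0.571 to 12.1). By the size rule 0 of 5 members were lower and 0 higher in either knockdown against shcontrol, beside 1.42% of tiles lower and 1.14% higher in shMETTL3 and 1% lower and 1.94% higher in shMETTL14. Between the knockdowns 0 members were lower and 0 higher, beside 0.755% and 1.77% of tiles. Of the 5 members, CCNA2 alone had at least 50 PETs in the comparison between the knockdowns. None reached 50 in shMETTL3 against shcontrol, where CCNA2 had 49 and TOP2A 45, so the rule could call no member there. CDK1 and MKI67 had no listed anchor to compare. With a minimum of 20 PETs no member was higher in shMETTL3, beside 1.92% of tiles. At that minimum no member was lower or higher in shMETTL14 against shcontrol, beside 2.02% and 2.72% of tiles, nor against shMETTL3, beside 1.31% and 2.95%.

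The other large TOP2A contacts lay 32.7 and 68.0 kb upstream. The nearer region (38598162 to 38615659) had 18 PETs in control and 3, 3 and 7 in shcontrol, shMETTL3 and shMETTL14. The farther one (38635848 to 38648606) had 14, 3, 2 and 0. Ratios of senescent shcontrol to control were 0.301 (0.0569 to 1.03) and 0.388 (0.0714 to 1.39), both with intervals that reach past 1. The regions themselves had fewer PETs in senescent shcontrol, at 0.424 (0.311 to 0.569) and 0.477 (0.363 to 0.619) of control. In control 97 TOP2A PETs went upstream and 35 downstream, and in senescent shcontrol 28 and 3.

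Partners were counted as merged regions, in which overlapping anchors of both sets are joined. In control TOP2A had 31 partner regions, CCNA2 25, CDK1 22, CCNB1 10 and MKI67 5. At the depth of senescent shcontrol, these would be 24.2, 18.7, 14.0, 6.43 and 3.12. Senescent shcontrol had 14 at TOP2A, 16 at CCNA2 and 3 at CCNB1. At that depth shMETTL3 had 8.38, 11.1 and 2.86 and shMETTL14 10.9, 15.7 and 5.30. CCNA2 thus came closest, with 16 partner regions in senescent shcontrol beside 18.7 in control at equal depth.

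Some partner regions of control held a senescent anchor but no listed contact with the gene. Over the genome 58.7% of control anchors overlap a senescent anchor. Of the control partner regions, 77.4% at TOP2A, 52% at CCNA2 and 80% at CCNB1 hold one. The bases differ, since the first share is over single anchors with any number of PETs and the others over merged regions with a contact. Control anchors without overlap were 41.3% of all and 16.0% of those with at least the 30 PETs of the CDK1 anchor. No share matched for PETs was computed. Of the 31 control partners of TOP2A, 24 hold a senescent anchor and 10 were also partners in senescent shcontrol, out of its 14. Of the 25 of CCNA2, 13 hold a senescent anchor and 7 were partners in senescent shcontrol, out of its 16. Of the 10 of CCNB1, 8 hold a senescent anchor and 2 were partners in senescent shcontrol, out of its 3. Taking any of the 3 senescent libraries, 16 of the TOP2A, 10 of the CCNA2 and 4 of the CCNB1 control partners had a listed contact. The regions in contact in all 4 libraries numbered 5 at CCNA2, 3 at TOP2A and 1 at CCNB1. The share of contacts that recur over the genome was not computed, so these counts have no background beside them. Many control interactions were of a single PET, 17 of 41 at TOP2A, 17 of 31 at CCNA2 and 7 of 10 at CCNB1. Senescent shcontrol also has fewer PETs than control, so a contact that is not listed again cannot be read as lost.

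Called loops at the members were few in senescence. The control library had 7, with 4 at TOP2A and 3 at CCNA2. Senescent shcontrol had 2, both from TOP2A to the region 128 kb upstream. The shMETTL3 library had the CCNA2 loop given above, and shMETTL14 had 0. The same number of PETs can carry another false discovery rate in another library. At the CCNA2 partner anchor 22.4 kb downstream, 5 PETs had 0.192 in senescent shcontrol and 0.524 in shMETTL14. A TOP2A loop of senescent shcontrol had 0.00959, close to the limit of 0.01. At these counts the calls cannot be compared between libraries. Over the genome these libraries had 25047, 13388, 14883 and 20711 called loops.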

How the data were processed

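H3K27ac HiChIP was measured in 4 libraries, 1 per group. The submitters' processing notes name hg19 and HiC-Pro 3.1.0, and no source used here names the caller of anchors and interactions. In the files a line is a pair of anchors. Column 7 holds PETs, a deposited count without normalization, and column 8, which has no name, was taken as the authors' q-value, a false discovery rate. Groups follow the samples' own labels. The members, lists and rules were chosen with earlier results of these data known. Positions of the 5 genes are on hg19. A PET with both ends in a window was counted once. Ratios of shares carry exact conditional binomial 95% intervals and levels exact Poisson ones. These cover counting error only, since each group is 1 library. They take PETs as independent molecules, which PCR copies are not, and whether copies remain was not checked. The background is every 30 kb tile of the genome with at least 50 PETs over both libraries. Partner numbers at equal depth are the expected number when PETs are drawn without replacement to the smallest library total. The named items are the 5 members and, for each, the 3 partner regions with most PETs over the libraries. Genes of like pattern were not named, as no hg19 annotation was used here. Strands, promoter sequences and neighbouring genes come from RefSeq on GRCh38.p14. The alternatives varied the window, the interactions, the scaling (edgeR 4.0.16 for TMM), the minimum and the anchor length. Python 3.11.15 and scipy 1.17.1 were used, and the ratio and depth steps were tested on simulated data.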

Additional observations from a re-analysis of the deposited data

How the results depend on the processing

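The count of members lower in senescent shcontrol than in control, 2 by library total, depended on the measure. It was 0 per covered kb of window, 0 per kb of whole anchors (added after seeing the data) and 0 when scaled to the flanking 500 kb. It was 1 with called interactions only and 1 with spans of at least 20 kb, TOP2A in both. With anchors in regions of both sets it was 1, CCNA2, as TOP2A stood at 0.539 (0.349 to 0.812), short of 2-fold. Without the top partner region of each member (added after seeing the data) it was 1, TOP2A. Except per covered kb, no share of tiles was computed under these changed measures, so those counts have no background beside them. Per covered kb the log2 ratio of CCNA2 turned to 0.084 and that of TOP2A to 0.88, which was also 0.88 per kb of whole anchors. CCNA2 stood at -0.29 per kb of whole anchors. The covered measure takes all PETs of an anchor but only its length inside the window. At CCNA2 that is 6.31 of 8.36 kb in senescence and 15.3 of 15.6 kb in control, so its turn comes with that clipping. The cause of the turn at TOP2A was not tested. The log2 ratio of CCNB1 ran from -2.60 to -0.92 over 15 alternatives, of which 7 left its value as reported; the -2.60 comes with the window of 10 kb on each side, which reaches a control anchor and ends short of its senescent counterpart. The count of members lower in shMETTL3 than in shcontrol, 0, became 1 (TOP2A) with a minimum of 20 PETs and 1 with no minimum. With no minimum the member was again TOP2A, and no share of tiles was computed there. The other 101 of 110 recomputed counts stayed within 1.5 times. With a minimum of 20 PETs CDK1 also counted as lower in senescent shcontrol, which has no listed anchor there. No paired analysis was possible because each group is 1 library. Depth limits every statement on CCNB1 and MKI67.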
